A study of Mus musculus with 6 samples.

Results

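The genes described here encode ephrin, semaphorin, Slit and netrin guidance cues and their receptors. The 40 genes were chosen from these families with earlier results of these data known, but not by a threshold on their values. A further 38 genes of the same families lie outside the 40. Probe sets were assigned to the 40 by the platform annotation. Of the 40 genes 37 had at least 1 probe set of their own, 63 probe sets in all, among 12393 genes in the gene table. Ephb1, Ephb2 and Robo2 had none in the annotation used and were not analysed here. Each gene is represented by its brightest probe set over the 6 arrays. Differences at other probe sets are given with the gene or in a later paragraph on genes with several probe sets.

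The samples were whole whisker pads, the part of the snout skin that bears the vibrissa follicles, taken from mouse embryos at E12.5. There were 3 homozygous Trps1 mutant embryos and 3 wild-type embryos, each on its own Affymetrix MOE430A array, and the series title gives the transcriptional targets of Trps1 in vibrissae as the question. The Trps1 protein carries a GATA-type zinc finger and acts as a transcriptional repressor. The labels do not name the mutant allele, the strain or the sex of the embryos.

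Guidance cues are secreted or membrane-bound proteins that attract or repel growing axons and migrating cells. Ephrins are held on the surface of one cell and bind Eph receptor tyrosine kinases on the next, and both cells can receive a signal, so that cell groups sort apart and boundaries form. Semaphorins act through plexins, often with a neuropilin as partner, Slits act through Robo receptors, and netrin-1 attracts through Dcc and repels through the Unc5 family. In the face these cues are known to act on trigeminal sensory axons, on migrating neural crest cells and on growing blood vessels.

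A difference is the mutant mean minus the wild-type mean of log2(signal + 16), with the standard error of the limma fit. Signals are on the deposited linear scale, and means are ± SD with n = 3 per group. The 6 arrays were scaled alike before deposit, with medians of 90.4 to 101.5. The 27 bacterial control probe sets read 0.4 to 33.8, and 33.8 is used below as the mark of background. Trps1 itself read 1297.3, 1491.9 and 1506.7 in the mutant and 807.6, 1061.4 and 748.1 in the wild-type embryos. That is a difference of 0.72 (SE 0.18, limma adjusted p = 0.603 over all genes), and since the mutated part of the gene is not given, this level does not check the labels. By Xist (461.5, against 44 to 93.7 on the other 5 arrays) and the Y-linked gene Eif2s3y (11.9, against 207.3 to 272.3) the embryo of wild-type replicate 3 had the pattern of a female and the other 5 that of males. The first principal component, with 28.7% of the variance, set both replicate 3 arrays apart from the other 4, and the 3' to 5' actin control ratio was 1.35 on mutant replicate 3 and 1.07 to 1.19 elsewhere.

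No guidance gene passed the test between genotypes. Of the 37 genes 0 had a limma adjusted p under 0.05, as had 0% of all genes tested. At an unadjusted p under 0.05, Plxna2 was the 1 gene higher in the mutant (2.7% of the 37, against 2.89% of all genes), and Sema4a and Efnb3 were the 2 lower (5.41%, against 2.49%). The 3 mutant values lay apart from the 3 wild-type values in 5 genes, 13.5% against 10.4% of all genes. Plxna2 and Epha5 were the 2 of these above wild-type (background 5.54%), and Sema4a, Efnb3 and Efna4 the 3 below (background 4.83%). The study's own threshold, an unadjusted p of at most 0.05 by an unpaired test with at least 1.5-fold, was met by 1 guidance gene, Sema4a, against 1.5% of all genes, when applied to these values, and 0 of the 63 probe sets are in the authors' deposited table of 65. Over the 37 genes 17 differences were positive (45.9%, against 50.1% of all genes) and 20 negative, with a median of -0.08 beside 0 over all genes. The median was 0.05 without mutant replicate 3.

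**Figure D1:**
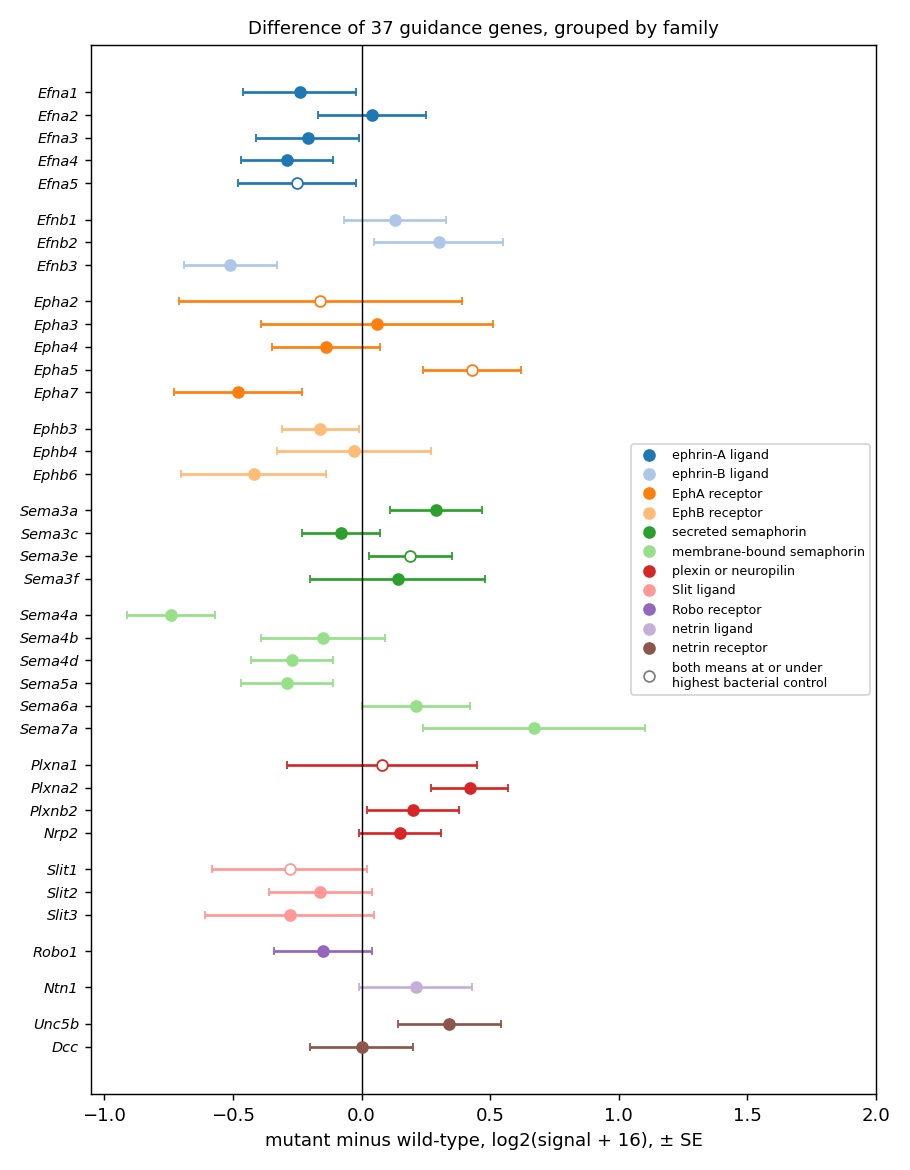
Mutant minus wild-type difference on the log2(signal + 16) scale (horizontal axis, points with SE bars, 3 arrays per group) for the 37 guidance genes, grouped by family. Open points mark genes with both group means at or under the highest bacterial control. Sema4a lies lowest at -0.74. All 4 points of the plexin and neuropilin group lie above 0, that of Plxna1 open, where 50.1% of all genes lie above 0.

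Sema4a encodes a transmembrane class 4 semaphorin that binds plexins. Its brightest probe set read 26.4, 38.9 and 29.4 in the mutant and 58.4, 71 and 59.4 in the wild-type embryos. Every mutant embryo was below every wild-type embryo, and 2 of the mutant values lay under the highest bacterial control. The difference was -0.74 (SE 0.17), the largest in size among the 37, with a limma unadjusted p = 0.00249 and an adjusted p = 0.596. For a gene this dim the size depends on the offset added before the log, and it was -0.99 with an offset of 1 and -0.41 with an offset of 64. By an exact permutation test over the embryos p = 0.1, the smallest value possible with 3 against 3, and the same holds for each of the 5 genes whose groups lay apart. The other probe set read 20.8, 73 and 10.1 in the mutant and 32.3, 43.7 and 40.1 in the wild-type embryos. There the groups overlapped, with the highest and the lowest value both in mutant embryos (-0.31, SE 0.42). With both probe sets averaged the difference was -0.52, with a limma unadjusted p = 0.0889. The suffix of the brighter probe set marks one whose probes may also match other transcripts.

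Efnb3 encodes ephrin-B3, a transmembrane ephrin known as a midline barrier to corticospinal axons in the mouse. Its 1 probe set read 213.8, 254.1 and 241.1 in the mutant and 415.1, 287.6 and 336.1 in the wild-type embryos. All 3 mutant values were lower, and the wild-type embryos spread more widely (SD 64.4, against 20.6 in the mutant). The difference was -0.51 (SE 0.18, limma adjusted p = 0.854). It was -0.38 without wild-type replicate 1, the highest of the 6. The limma unadjusted p of 0.0228 became 0.0839 there and 0.0703 without mutant replicate 1.

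Plxna2 encodes plexin-A2, a receptor for class 6 semaphorins and, with neuropilins, for class 3 semaphorins. Signals of 146.3, 160.1 and 139 in the mutant stood against 105.4, 120.1 and 95.6 in the wild-type embryos. Every mutant embryo was higher, by a difference of 0.42 (SE 0.15, limma adjusted p = 0.874). It was 0.35 to 0.50 with any 1 of the 6 arrays left out. The limma unadjusted p of 0.0259 lay between 0.052 and 0.0809 in 4 of these 6 fits, those without mutant replicate 1 or 2 or wild-type replicate 1 or 3.

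Efna4, a lipid-anchored ephrin, read 427.7, 410.3 and 326.6 in the mutant and 433.2, 449.5 and 550.5 in the wild-type embryos. The groups lay apart only narrowly, at 427.7 and 433.2, and the replicate 3 embryos held both extremes. The difference of -0.29 (SE 0.18) was -0.07 with both replicate 3 arrays left out. Epha5, a receptor for A-class ephrins, read 33.3, 25.3 and 23.8 in the mutant and 22.5, 16.5 and 10.7 in the wild-type embryos. All 6 values lay under the highest bacterial control, so the difference of 0.43 (SE 0.19) was measured at background.

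**Figure D2:**
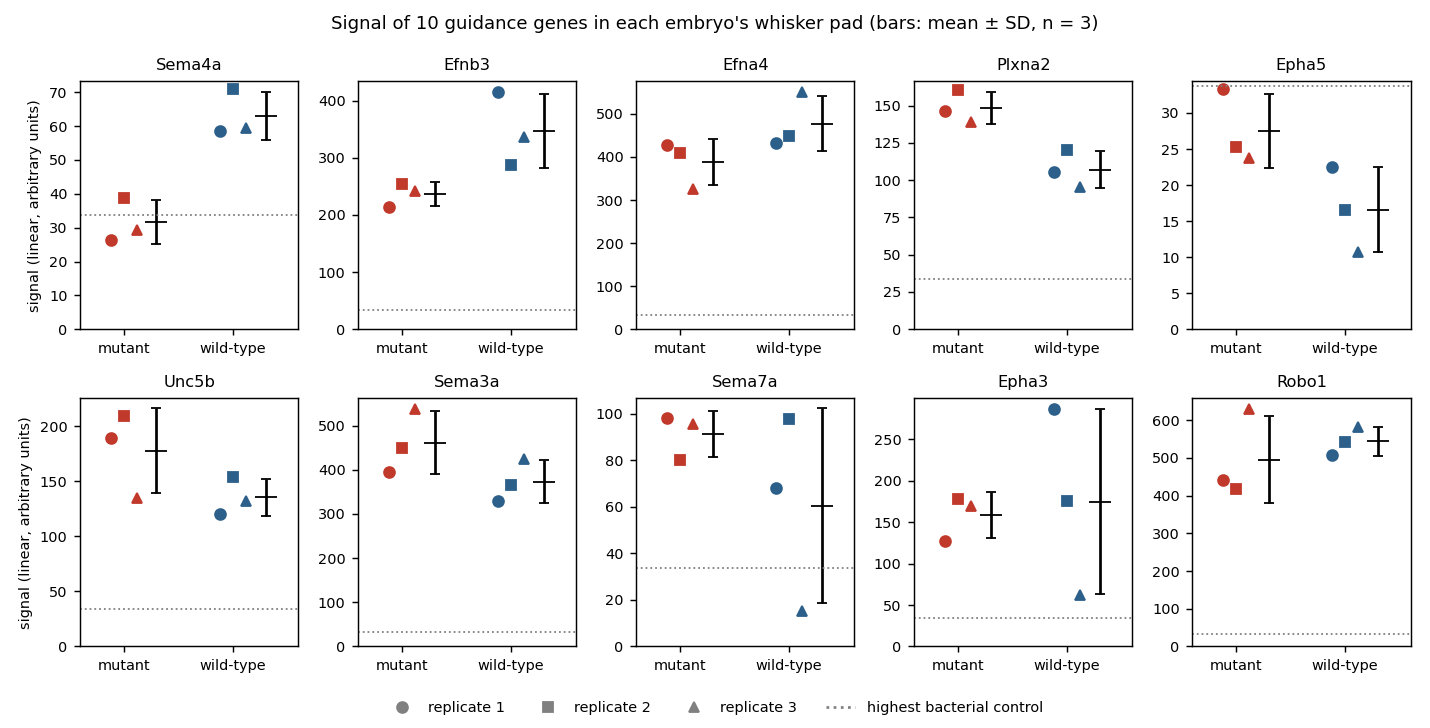
Linear signal (vertical axis, arbitrary units) of 10 guidance genes in each embryo, mutant left of wild-type, with marker shape giving the replicate number, black bars the mean ± SD (n = 3) and the dotted line the highest bacterial control at 33.8. The groups lie apart in the 5 genes of the upper row and overlap in the 5 of the lower row. In the lower row 1 wild-type embryo stands far below the others in Sema7a (15.4) and Epha3 (62.4). Another wild-type embryo stands far above the others in Epha3 (286.4).

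Sequence upstream of Sema4a, Efna4 and Plxna2 is shown because Trps1 is a GATA-type protein. Together with Efnb3, which is not in the promoter table, these are the 4 genes with groups apart and at least 1 group mean above background. Each line holds the 250 bases before the most upstream annotated start, read 5′ to 3′ on the gene's strand, from RefSeq (GRCm38.p6). The Sema4a window is chr3:88461183-88461432 on the minus strand, that of Efna4 chr3:89338029-89338278 on the minus strand, and that of Plxna2 chr1:194619579-194619828 on the plus strand. Capitals mark a GATA motif, searched on both strands as any of the words AGATAA and AGATAG and the words TGATAA and TGATAG.
Sema4a: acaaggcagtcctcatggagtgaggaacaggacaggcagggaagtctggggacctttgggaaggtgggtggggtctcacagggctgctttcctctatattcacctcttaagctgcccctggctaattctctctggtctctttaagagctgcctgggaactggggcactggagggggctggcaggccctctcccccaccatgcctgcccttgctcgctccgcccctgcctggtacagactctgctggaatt
Efna4: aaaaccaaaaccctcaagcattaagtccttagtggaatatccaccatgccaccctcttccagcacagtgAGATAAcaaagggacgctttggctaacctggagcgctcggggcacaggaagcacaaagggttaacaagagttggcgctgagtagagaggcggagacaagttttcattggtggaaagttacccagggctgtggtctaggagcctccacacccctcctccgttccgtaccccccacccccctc
Plxna2: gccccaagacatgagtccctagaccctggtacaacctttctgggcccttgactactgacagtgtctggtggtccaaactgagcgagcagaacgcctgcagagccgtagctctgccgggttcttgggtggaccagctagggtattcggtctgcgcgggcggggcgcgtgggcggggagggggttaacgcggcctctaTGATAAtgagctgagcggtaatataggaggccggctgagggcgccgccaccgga
The Efna4 and Plxna2 windows hold 1 match each, and the Sema4a window holds none, as do the windows at the other 3 annotated starts of Sema4a. A match was found in 26.5% of the 32851 windows of this length that RefSeq gives for all genes. Of the 40 guidance genes 33 were in the table, with 45 windows, and 7 of those windows (15.6%) held one, those of Efna4, Epha3, Sema3a, Sema4d, Plxna2, Robo2 and Unc5b. A match is a run of letters and was not tested for binding.

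Among the ephrins, 4 of 5 A-class genes read lower and 2 of 3 B-class genes higher in the mutant, none past the test. Over all genes 50.1% were higher, the share to set beside this and every family count below. Efna1 differed by -0.24 at both of its probe sets, Efna3 by -0.21 and Efna2 by 0.04. Efna5, a repellent for retinal axons in the tectum, read 24.2, 20.9 and 11.5 in the mutant and 17.9, 22.3 and 36.5 in the wild-type embryos, at background in both groups. Efnb1, an X-linked gene mutated in human craniofrontonasal syndrome, averaged 437 ± 94.5 in the mutant and 395 ± 52.1 in the wild-type embryos. The female wild-type replicate 3 read 378.1, between the other 2 wild-type embryos at 354.1 and 454, and the 3 probe sets of Efnb1 differed by -0.01 to 0.16. Efnb2, the ephrin of arterial endothelium and a partner of Ephb4, was measured by 4 probe sets. Its brightest read 753.5, 720.9 and 1145.2 in the mutant and 516.1, 783.9 and 808 in the wild-type embryos, and the groups overlapped (0.30, SE 0.25). At the second the values were 1057.5, 803.6 and 772.5 in the mutant and 529.9, 688.6 and 621.8 in the wild-type embryos. Every mutant embryo was higher there (0.50, SE 0.19, limma adjusted p = 0.921 over all probe sets). The remaining pair differed by 0.26 and 0.40, so all 4 were positive, and all 4 cover the same RNA in the same embryos.

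Among the EphA receptors the signs were mixed, with 2 higher and 3 lower. Epha7, a receptor for A-class ephrins, averaged 64.1 ± 26.3 in the mutant and 93 ± 16.1 in the wild-type embryos at its brightest probe set (-0.48, SE 0.25), where the groups overlapped. A second probe set read 33.8, 51.6 and 62.5 in the mutant and 135, 71.1 and 71.4 in the wild-type embryos. Every mutant embryo was lower there (-0.71, SE 0.28, limma adjusted p = 0.925 over all probe sets). The remaining one read at background (-0.18). Epha4, which binds ephrins of both classes, differed by -0.14 and 0.05 at its 2 probe sets, each by less than its standard error. Epha3 read 126.8, 178.3 and 170 in the mutant and 286.4, 176 and 62.4 in the wild-type embryos, so that its whole range of 4.59-fold lay within the wild-type group. Its difference of 0.06 (SE 0.45) was -0.48 without wild-type replicate 3 and 0.49 without wild-type replicate 1. Its other probe sets differed by -0.19 and -0.12, each by less than its standard error. Epha2, an epithelial Eph receptor, read 11.9, 71.5 and 4.3 in the mutant and 10.9, 25.5 and 45.8 in the wild-type embryos, with both means under the highest bacterial control.

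The 3 EphB receptors measured had differences below 0 with all 6 arrays, none past the test. Ephb3 was the steadiest of them at 462 ± 41.2 in the mutant and 519 ± 39.4 in the wild-type embryos (-0.16, SE 0.15). Ephb4, the Eph receptor of venous endothelium, averaged 225 in both groups (-0.03, SE 0.30), and its difference turned to 0.28 when mutant replicate 3 was left out and to 0.15 when wild-type replicate 1 was. Its lowest values were those of both replicate 3 embryos, 135.7 in the mutant and 163.7 in the wild-type. Ephb6, an Eph receptor without kinase activity, read 50.7, 56.3 and 44.8 in the mutant and 93.5, 98.4 and 39.6 in the wild-type embryos. Its difference of -0.42 (SE 0.28) was -0.75 without wild-type replicate 3, which alone of the wild-type embryos read low, and the limma adjusted p stayed at 0.511 or above under every alternative run.

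Of the secreted class 3 semaphorins 3 of 4 read higher in the mutant, Sema3e among them at background, and none passed the test. Sema3a, a repellent for sensory axons that acts through neuropilin-1, read 395.1, 450.1 and 536.6 in the mutant and 328.5, 366.5 and 423.9 in the wild-type embryos. The groups overlapped in the range of 395.1 to 423.9 (0.29, SE 0.18). A second bright probe set of Sema3a differed by 0.30 (SE 0.29), and the dimmest, near background at means of 34.1 in the mutant and 40.8 in the wild-type embryos, by -0.18. Sema3f, a ligand of neuropilin-2, read 247.8, 249.8 and 103.4 in the mutant and 176.2, 207.4 and 128.9 in the wild-type embryos. Both replicate 3 embryos were lowest, and the difference of 0.14 (SE 0.34) was 0.53 without mutant replicate 3. It turned to -0.05 without mutant replicate 1 or 2 and to -0.03 without wild-type replicate 3. The other probe set of Sema3f differed by 0.28 (SE 0.35). Sema3c, needed by cardiac neural crest in the mouse, spanned only 67.8 to 87.2 over the 6 embryos (-0.08, SE 0.15). All 3 probe sets of Sema3e, a direct ligand of plexin-D1, had both means at background.

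Membrane-bound semaphorins, 4 of 6 lower, held both the lowest and the highest difference of the 37 genes. Sema7a, a lipid-anchored semaphorin that promotes axon growth, read 98.3, 80.2 and 95.4 in the mutant and 68.2, 97.9 and 15.4 in the wild-type embryos. Its difference of 0.67 (SE 0.43) rested on wild-type replicate 3 and was 0.13 without that embryo. Sema4d, a ligand of plexin-B1, read 123.6, 124.8 and 156 in the mutant and 183.3, 163.6 and 150.5 in the wild-type embryos, with 1 mutant embryo inside the wild-type range (-0.27, SE 0.16). Sema5a, a transmembrane semaphorin with thrombospondin repeats, gave opposite signs at its probe sets. The brighter read 165.2, 191.8 and 213.4 in the mutant and 272.5, 197.7 and 239.2 in the wild-type embryos (-0.29, SE 0.18). The dimmer read 72.6, 107.9 and 64.5 in the mutant and 53.6, 55.4 and 57 in the wild-type embryos. Every mutant embryo was higher there (0.43, SE 0.20, limma adjusted p = 0.966 over all probe sets), so no direction can be given for the gene. Sema6a, a ligand of A-class plexins, averaged 103 ± 10.3 in the mutant and 88.3 ± 25 in the wild-type embryos (0.21, SE 0.21). Sema4b averaged 44.7 ± 12.2 in the mutant and 51.9 ± 18.2 in the wild-type embryos, close to background (-0.15, SE 0.24).

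The semaphorin receptors among the 40, 3 plexins and 1 neuropilin, were all higher in the mutant by difference, from 0.08 to 0.42. None passed the test, and of all genes 50.1% were higher. Outside the 40 the signs were mixed at the brightest probe sets. Plxnc1 differed by 0.16, Nrp1 by 0.12 and Plxna3 by -0.06. Plxnb3 differed by 0.67 with every mutant embryo higher, and Plxnd1 by -0.22 (SE 0.14) with every mutant embryo lower. Plxnb2, a receptor for class 4 semaphorins, read 631.9, 533.3 and 426 in the mutant and 464.3, 449.5 and 445.2 in the wild-type embryos. The wild-type embryos lay close together while the mutant embryos lay on both sides of them (0.20, SE 0.18). Nrp2, the neuropilin bound by Sema3f, averaged 228 ± 17.4 in the mutant and 205 ± 23.1 in the wild-type embryos (0.15, SE 0.16). Plxna1 read 16.6, 60 and 22.4 in the mutant and 13.1, 34.2 and 39.1 in the wild-type embryos, with both means at background (0.08, SE 0.37). Its difference turned to -0.29 without mutant replicate 2 and to -0.20 without wild-type replicate 1.

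With all 6 arrays the 3 Slits and Robo1 had differences below 0 at their brightest probe sets, all 4 by less than their standard error. Slit2, a repellent that also promotes branching of sensory axons, read 142, 99.5 and 152.2 in the mutant and 164.5, 151.1 and 126.6 in the wild-type embryos (-0.16, SE 0.20), and the difference was 0 without mutant replicate 2. The other probe set of Slit2, at background, differed by 0.32 (SE 0.38). Slit3 read 57.3, 27.9 and 13.5 in the mutant and 53.4, 36.4 and 30.4 in the wild-type embryos, around the background mark (-0.28, SE 0.33). Its difference was -0.62 without mutant replicate 1 and 0.04 without mutant replicate 3. Slit1 read under it on all 6 arrays, at 3.5 to 25.8. Robo1, a Slit receptor, read 440.8, 417.1 and 628.5 in the mutant and 506.6, 543 and 582.9 in the wild-type embryos. In that gene 2 mutant embryos lay below and 1 above all wild-type embryos (-0.15, SE 0.19).

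In the netrin system Ntn1, the netrin-1 gene, read 172.5, 197.3 and 131.1 in the mutant and 179.4, 109.7 and 138.4 in the wild-type embryos (0.21, SE 0.22). The groups overlapped throughout, and a dimmer probe set differed by 0.14. Unc5b, a netrin receptor also found on endothelium, read 189.2, 209.5 and 134.7 in the mutant and 120.5, 153.9 and 132.5 in the wild-type embryos. Replicates 1 and 2 of the mutant were above all wild-type embryos and replicate 3 was among them (0.34, SE 0.20, limma adjusted p = 0.931, and 0.51 without mutant replicate 3). Dcc, the attractive netrin receptor, averaged 94 ± 8.43 in the mutant and 95.6 ± 25.1 in the wild-type embryos, a difference of 0 (SE 0.20).

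Of the 37 genes 29 had both group means above the highest bacterial control, and 6 had both at or under it (Efna5, Epha2, Epha5, Sema3e, Plxna1 and Slit1). In the other 2, Sema4a and Slit3, only the mutant mean was under it (31.6 and 32.9). Signal is a property of each probe set as well as of the RNA, so the levels of different genes were not ranked. Among the 29 the highest of the 6 arrays exceeded the lowest by a median of 1.71-fold. Over all 37, 5 genes stayed within 1.5-fold and 8 went beyond 3-fold, and 5 of those 8 had both means at background.

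Several probe sets were available for 18 guidance genes. In 11 of these at least 2 probe sets read above background, and the signs of their differences were the same in 6 (Efna1, Efnb2, Epha7, Sema3f, Sema4a and Ntn1) and differed in 5 (Efnb1, Epha3, Epha4, Sema3a and Sema5a). In Sema5a both values exceeded their standard error. Other probe sets had both means at background in Epha5, Epha7, Sema3e, Sema4b, Sema4d, Sema6a, Sema7a and Slit2. Their sign went against the brightest in Sema4b (0.51), Sema6a (-0.14) and Slit2 (0.32). It was mixed in Sema4d (-0.39 and 0.26) and Sema3e (-0.18 and 0.16). It was the same in Epha5 (0.45), Epha7 (-0.18) and Sema7a (0.28). With probe sets averaged, Sema4b differed by 0.18, Sema6a by 0.04 and Slit2 by 0.08.

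**Figure D3:**
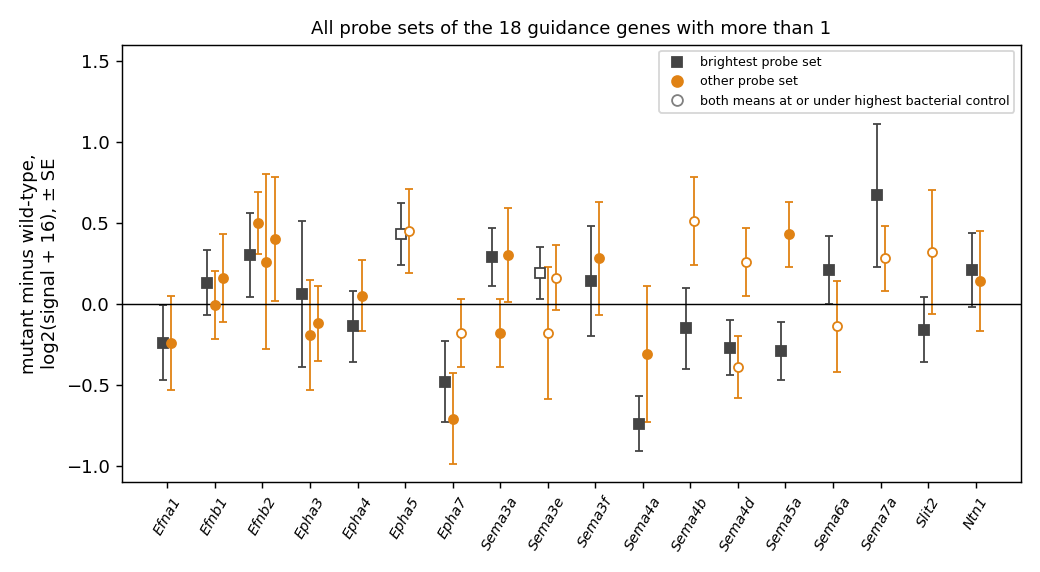
Mutant minus wild-type difference on the log2(signal + 16) scale (vertical axis, points with SE bars, 3 arrays per group) for every probe set of the 18 guidance genes with more than 1. Squares are the brightest probe set, circles the others, and open markers have both group means at or under the highest bacterial control; the 4 probe sets of Efnb2 all lie above 0, while those of Sema5a lie on opposite sides of it.

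Both replicate 3 embryos read lower than the other 4 in 6 guidance genes, Epha4, Ephb4, Ephb6, Plxnb2, Sema3f and Sema4b, 16.2% against 9.13% of all genes. They were both highest in 2, Efnb2 and Robo1 (5.41%, against 10.3% of all genes). Both replicate 1 embryos were lowest in 1 gene (2.7%, against 6.73% of all genes) and highest in 2 (5.41%, against 5.28%). Both replicate 2 embryos were lowest in 2 (5.41%, against 6.03%) and highest in 3 (8.11%, against 5.44%). At the 2 dimmest probe sets of Efnb2 the replicate 3 embryos read 68.3 and 62.9 in the mutant and 43.2 and 83.1 in the wild-type. The other 4 embryos read 173.3 to 195.1 at the first of these and 79.8 to 201.4 at the second, so a gene whose brightest probe set was highest in replicate 3 had another that was lowest there. Over the 37 genes the median deviation from the gene's own mean was -0.17 on mutant replicate 3, against 0.01 to 0.07 on the other 5 arrays. Over all genes it was -0.01 on mutant replicate 3 and -0.02 to 0.04 on the others. What part the actin ratio or the separation of the replicate 3 arrays has in these values was not tested.

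**Figure D4:**
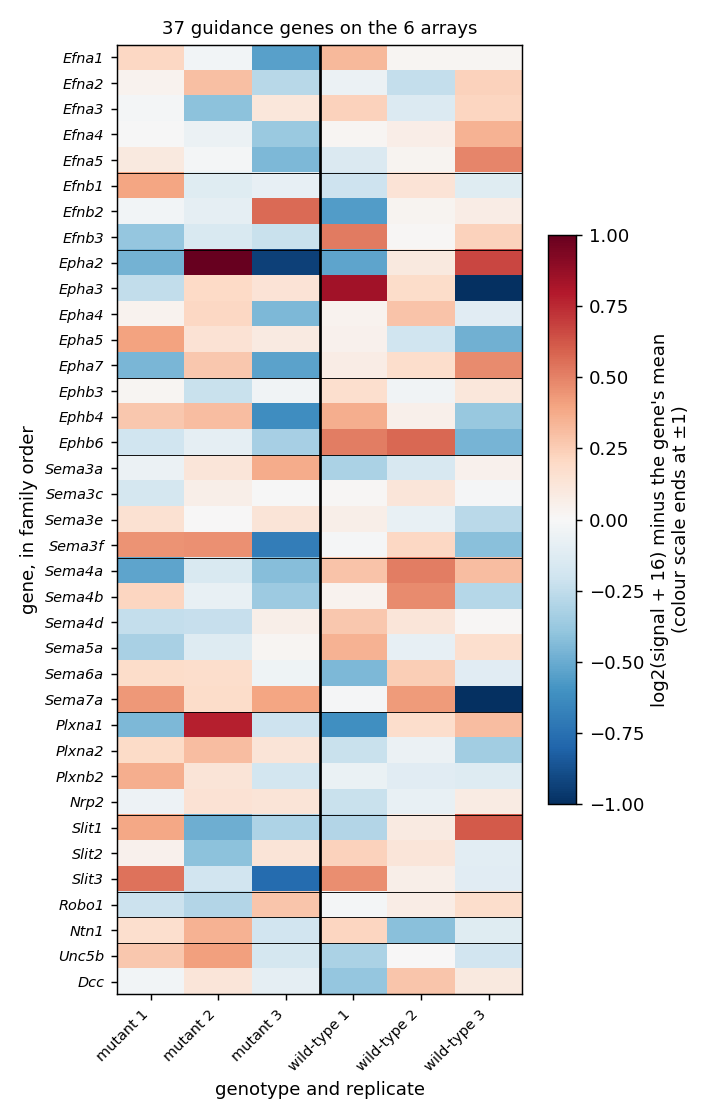
Log2(signal + 16) minus the gene's mean over the 6 arrays (colour, scale ends at ±1) for the 37 guidance genes in family order, mutant arrays left of wild-type. Sema4a, Efnb3 and Efna4 are lower on each mutant array than on any wild-type array, and mutant replicate 3 is below its gene's mean in Ephb4, Sema3f and Slit3.

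Guidance genes are expressed in several cell types of the pad, and markers of 8 cell types were summed on each array. Of 11 neuron markers measured 7 were higher, and their summed signal was 2707 to 3146 in the mutant and 2138 to 2326 in the wild-type embryos, with Snap25 at background. Of 8 endothelial markers 5 were lower (sums 1037 to 1458 in the mutant, 1486 to 1879 in the wild-type), and of 6 Schwann cell and melanoblast markers 3 (781 to 851 in the mutant, 888 to 1110 in the wild-type). The sums of 8 mesenchyme markers, 5 of them higher, were 18452 to 19278 in the mutant and 16762 to 17493 in the wild-type embryos. These 4 sums did not overlap between genotypes, which was not tested. How often sums over other genes lie apart was not measured, so there is no background share to set beside them. The sums of epithelium (2593 to 4049 in the mutant, 2846 to 4471 in the wild-type), erythroid (10922 to 15237 in the mutant, 13996 to 17338 in the wild-type) and macrophage markers (317 to 387 in the mutant, 274 to 405 in the wild-type) did overlap. Muscle marker sums also overlapped, at 126 to 184 in the mutant and 96 to 131 in the wild-type embryos, with Myod1 and Myf5 at background. A sum follows its brightest genes, and the median difference of a list was 0.26 for neuron, 0.29 for muscle and -0.26 for erythroid markers. It was 0.07 for mesenchyme, 0.01 for macrophage, 0 for Schwann cell and melanoblast, and -0.08 for both endothelial and epithelium markers. Their part in the guidance gene values was not tested, and in whole tissue fewer cells of a type and less RNA per cell cannot be told apart.

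Ligands and receptors of the same families outside the 40, 38 genes of which 23 were measured, likewise had 0 members past the limma adjusted threshold. At an unadjusted p under 0.05 there were 2 higher (8.7%, against 2.89% of all genes) and 1 lower (4.35%, against 2.49%). Unc5c, a repulsive netrin receptor, read 189.7, 196.7 and 238.9 in the mutant and 104.6, 137.7 and 154.2 in the wild-type embryos. Every mutant embryo was higher (0.61, SE 0.19, limma adjusted p = 0.78), and its other probe set differed by 0.62 (SE 0.28) with groups that overlapped. Plxnb3, a B-class plexin, read 57.8, 63 and 46.2 in the mutant and 39.7, 19.2 and 30 in the wild-type embryos, again with every mutant embryo higher (0.67, SE 0.21). Robo4, an endothelial Robo, read 76.9, 44.3 and 49 in the mutant and 74.2, 86.1 and 91.8 in the wild-type embryos, where 1 mutant embryo lay inside the wild-type range (-0.48, SE 0.20).

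Of 45 cytoplasmic partners of guidance receptors 39 were measured, with 0 past the limma adjusted threshold and 1 in each direction at an unadjusted p under 0.05 (2.56%, against 2.89% of all genes higher and 2.49% lower). Fes, a tyrosine kinase that binds plexin-A1, read 29.8, 47.9 and 30.6 in the mutant and 61.6, 59.2 and 70.3 in the wild-type embryos (-0.63, SE 0.18). Every mutant embryo was lower there, while at its other probe set the groups overlapped (-0.42, SE 0.41). Trio, an exchange factor for Rac that acts downstream of Dcc, read 630.7, 564.6 and 544.7 in the mutant and 371.8, 417.5 and 508.7 in the wild-type embryos (0.42, SE 0.17). Its other probe set differed by 0.10 (SE 0.22) and the groups overlapped. The median difference was -0.02 over the 39 partners and 0.05 over the 23 other ligands and receptors, beside -0.08 over the 37 guidance genes.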

How the data were processed

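Total RNA of 6 whole whisker pads was hybridised to 1-colour arrays, per the labels' protocols. The deposited value table holds 1 linear intensity per probe set and array, and the method of summary and scaling was not given in the sources used here. The authors' deposited table gives a fold (ratio) and 2 log2 group values for 65 probe sets, from GeneSpring GX 10.0 according to the design text of the submitters; only its probe set names were used. Of 22690 probe sets 64 controls were left out. Of the other 22626, 20380 had 1 gene in the platform annotation, 691 had several and 1555 were not listed, and 20351 were matched by gene number to GRCm38.p6 for symbols. The brightest probe set per gene gave 12393 genes.

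Intensities plus an offset of 16 were taken to log2, and the genotypes were compared with limma 3.58.1 in R 4.3.3 (lmFit, eBayes, two-sided, no covariates). The p-values were Benjamini-Hochberg adjusted over all genes, with 0.05 as the threshold. Other probe sets come from the same fit over all 22626 probe sets. The offset draws differences of dim genes toward 0. Exact permutation tests were two-sided over the 6 values. The fit was tested on simulated arrays. Any 2 arrays had the same signal in at most 0.358% of probe sets, so each counted as a sample. Deviations from group means correlated at 0.038, 0.069 and 0.136 between arrays with the same replicate number, so the numbers were not taken to pair the embryos.

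The genes, the lists and the alternatives were chosen with earlier results of these data known. Named genes are all 40 guidance genes, Trps1, and the plexins and neuropilin measured outside the 40. Up to 6 genes of each of the other 2 lists are also named, by smallest unadjusted p among those under 0.05. The marker genes are given as sums. Precision is limited by the number of arrays. Alternatives were quantile normalization, equal medians, removal of the dimmest probe sets (1 in 3), offsets of 1 and 64, a trended variance prior, the replicate block, each array or both replicate 3 arrays left out, the mean over a gene's probe sets, and the methods' unpaired test of equal variance with at least 1.5-fold.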

Additional observations from a re-analysis of the deposited data

How the results depend on the processing

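Under every alternative run 0 guidance genes passed the adjusted threshold, with limma and with the methods' test. Sema4a, Efnb3, Efna4, Plxna2 and Epha5 kept their sign wherever they were measured. Their groups lay apart, so leaving arrays out or changing the offset could not have turned that sign. Of the counts at an unadjusted p, an offset of 1 gave 2 guidance genes higher, 0 other ligands and receptors lower and 0 partners higher. The fit with the replicate block gave the same 3 counts of 2, 0 and 0. Over all genes 620 of 12393 had an unadjusted p under 0.05 with the offset of 1 and 730 with the block, in either direction. The trended prior gave 0 other ligands and receptors lower, with 660 of 12393 genes in either direction. The methods' test with its fold gave 0 guidance genes higher and 1 lower, with 0 other ligands and receptors lower and 0 partners higher. It was met by 1.5% of all genes, in either direction. Removal of the dimmest probe sets left 30 guidance genes, with 1 higher with groups apart (3.33%, against 5.49% of all genes). At an unadjusted p it gave 1 other ligand or receptor higher, with 471 of 8813 genes in either direction. The mean over probe sets gave 1 higher with groups apart (2.7%, against 5.29% of all genes), a median difference of 0 and 0 partners higher. In that setting 640 of 12393 genes had an unadjusted p under 0.05, in either direction. There the 2 guidance genes lower at an unadjusted p were Efnb3 and Epha7 (-0.46), not Sema4a (-0.52). Without both replicate 3 arrays 8 guidance genes were higher and 8 lower with groups apart (21.6% each, against 22.5% and 17.2% of all genes), and the median was 0.08. At an unadjusted p 0 other ligands and receptors were lower there, and 3 partners were higher and 0 lower. Over all genes it was 981 of 12393 in either direction. With 1 array left out in turn, 0 to 2 guidance genes were higher and 1 to 3 lower at an unadjusted p. Over all genes it was 589 to 921 of 12393 in either direction. Groups lay apart in 3 to 5 higher and 3 to 6 lower guidance genes (8.11% to 13.5% and 8.11% to 16.2%, against 9.17% to 13% and 8.87% to 11.8% of all genes). The median difference of the guidance genes was -0.11 to 0.05. It was above 0 only without mutant replicate 3. In the same settings 0 to 1 other ligands and receptors were lower, and 0 to 1 partners were higher and 1 to 2 lower. The count of 1 higher was 0 without mutant replicate 1, mutant replicate 2 or wild-type replicate 3. Without wild-type replicate 1 it was Epha5 in place of Plxna2. Signal limits 6 of the 37 genes, which read at background in both groups, and also Sema4a and Slit3, whose mutant means lay under the background mark.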
